A study of Mus musculus with 8 samples.

Results

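Pglyrp1 and its family, the peptidoglycan recognition proteins Pglyrp1, Pglyrp2, Pglyrp3 and Pglyrp4, were followed in CD8+ T cells sorted from mouse tumours. The members were taken by gene symbol, and all 4 were found among the 20029 rows of the deposited table. RNA was measured in 8 libraries, 4 from Pglyrp1 knockout (KO) mice (replicates 1 to 4) and 4 from wild-type (WT) mice (replicates 6 to 9), and the comparison asks what changes when the gene is lost. The WT animals were C57BL/6J, and the KO animals carried the B6.129S4-Pglyrp1tm1.1Lky/J allele. The labels tie the deletion to no Cre driver or single cell type, and do not call the groups littermates. Every animal received 500000 MC38-OVA cells under the skin of the right flank, a mouse colon carcinoma line that carries the model antigen ovalbumin. For each library 1000 live cells that stained for CD45, TCRβ and CD8 were sorted and turned into full-length cDNA by a modified SMART-Seq2 method. The sources used here do not state the age of the animals or which exons the allele lacks.

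Peptidoglycan recognition proteins are secreted innate immune proteins that bind the cell wall polymer of bacteria. Pglyrp1, also called Tag7 or PGRP-S, is best known from the granules of neutrophils and kills bacteria directly. Pglyrp2 is an amidase that cuts peptidoglycan and is made mainly by the liver, whereas Pglyrp3 and Pglyrp4 are made mainly by skin and mucosal epithelia. Pglyrp1 has also been described as a ligand of TREM1 and TNFR1, receptors of inflammatory signalling, and as a partner of Hsp70 and of S100A4.

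The 4 genes lie at 3 places in the mm10 genome in the GENCODE M21 annotation. Pglyrp1 lies on chromosome 7, from 18884690 to 18890438 in RefSeq, with a coding transcript of 694 bases in 3 exons. Pglyrp2 lies on chromosome 17, from 32412459 to 32424167, with a coding transcript of 1807 bases in 5 exons. Pglyrp3 and Pglyrp4 both lie on chromosome 3, from 92014583 to 92031582 and from 90726906 to 90741517, with coding transcripts of 1107 and 2229 bases.

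The coding stretch of 60 bases in which the other 3 genes are most like Pglyrp1 shows how far the members differ as targets for reads. Capitals mark the 25 bases that are the same in all 4 genes. Each stretch lies within 1 coding exon of the mm10 build.
Pglyrp1, chr7:18889286-18889345, plus strand: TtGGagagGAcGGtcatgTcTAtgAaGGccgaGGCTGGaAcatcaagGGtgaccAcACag
Pglyrp2, chr17:32416036-32416095, minus strand: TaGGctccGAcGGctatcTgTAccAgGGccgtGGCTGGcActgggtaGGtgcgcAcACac
Pglyrp3, chr3:92025688-92025747, plus strand: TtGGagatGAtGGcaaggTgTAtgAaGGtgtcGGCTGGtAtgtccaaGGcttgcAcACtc
Pglyrp4, chr3:90738999-90739058, plus strand: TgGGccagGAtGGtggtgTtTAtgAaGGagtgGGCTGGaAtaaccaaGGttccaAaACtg

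In this stretch Pglyrp2 shared 61.7% of the bases of Pglyrp1, Pglyrp3 65.0% and Pglyrp4 66.7%. The longest run of identical coding bases was 10 between Pglyrp1 and Pglyrp2, 10 between Pglyrp1 and Pglyrp3 and 14 between Pglyrp1 and Pglyrp4, all shorter than the sequenced reads of 38 bases. Of the 657 words of 38 bases in the coding transcript of Pglyrp1, 0 occurred in a transcript of any other gene, and the same held for 1770 words of Pglyrp2. Over all 4 annotated transcripts of Pglyrp1, 90 of 1836 words were shared, with 404 other genes. Pglyrp3 and Pglyrp4 shared 2 such words with each other. Over all 8 annotated transcripts of Pglyrp2, 431 of 3373 words were shared, all with the antisense transcript CT485616.1 at its 3′ end. The library method does not mark strand, so reads from that overlap could not be assigned to either gene.

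Pglyrp1 was listed at 0 in every KO library, whose deposited values are whole numbers worth 0.299 to 0.421 TPM per unit once every library is brought to the same total of 1000000 (TPM, a transcript abundance corrected for length, from here on). In WT libraries 6, 7, 8 and 9 the deposited values were 303, 466, 598 and 390, equal to 123, 210, 208 and 153 TPM. The groups did not overlap, and the WT libraries themselves spanned less than a factor of 2. The WT mean was 173 ± 42.5 TPM (SD, n = 4). Pglyrp1 is the gene that the KO allele targets, and it passed the filter through the WT libraries alone. Its tests therefore check the genotype of the samples and give no independent result. Pglyrp1 was lower in KO by limma over 10732 genes (adjusted p = 2.93e-07). An exact permutation test (two-sided, 70 ways to assign the labels) gave p = 0.0286, its smallest possible value. Pglyrp1 was the only gene called lower in KO, which is 0.00932% of the genes tested. Called higher were 2 (0.0186%), and 3 were called in all (0.028%). Without KO 2 the number called was 5, and Pglyrp1 was among them. The design text gives 4 mice per genotype; whether each library is 1 mouse is not spelled out, so p-values measure the spread between these samples.

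Pglyrp2 was present in all 8 libraries. From KO 1 to KO 4 its level was 37.8, 37.8, 32.3 and 29.9 TPM. From WT 6 to WT 9 it was 45.5, 54.4, 49.7 and 34.6 TPM. WT 6, 7 and 8 lay above every KO library, whereas WT 9 lay below KO 1 and KO 2, so the groups overlapped. The mean was 34.4 ± 3.99 TPM in KO and 46.1 ± 8.45 TPM in WT cells (SD, n = 4 each). The difference on the log2(TPM + 1) scale was -0.40 (SE 0.17, 95% interval -0.79 to -0.01), with a limma adjusted p of 0.540 and an exact permutation p of 0.0857. Pglyrp2 thus did not pass over all genes, and 8.56% of all genes tested had a smaller unadjusted p than its 0.0463 (9.08% were under 0.05). The interval spans a KO level between 0.580 and 0.994 of the WT level. Pglyrp2 values were lowest in KO 3 and KO 4, the 2 libraries with high macrophage genes. The summed level of 20 macrophage and dendritic cell genes was 8772 and 12037 TPM in these 2, 568 and 442 TPM in KO 1 and 2, and 286 to 1052 TPM in WT libraries. Without KO 3 and KO 4 the difference in Pglyrp2 was -0.26 (limma adjusted p = 1.000, unadjusted p = 0.274), and the part of these cells in it was not tested. In bulk samples, fewer cells of a type and less RNA per cell cannot be told apart.

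Pglyrp3 and Pglyrp4 were listed at 0 in all 8 libraries. No RNA of either epithelial member was therefore detected in these sorts, in KO or in WT, and neither entered the test.

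**Figure D1:**
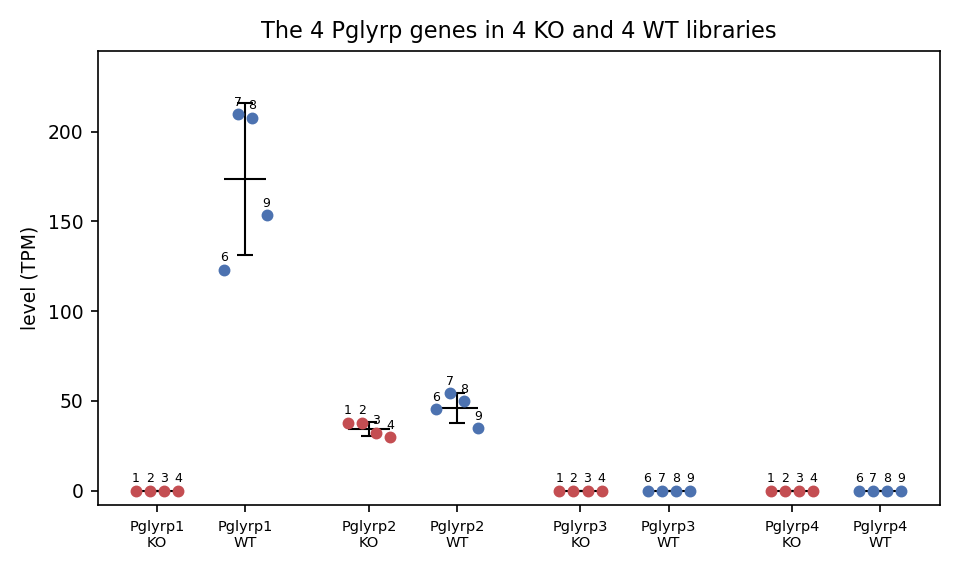
Level in TPM (vertical axis) of Pglyrp1, Pglyrp2, Pglyrp3 and Pglyrp4 in the 4 KO (red) and 4 WT (blue) libraries, with the replicate number above each point, the mean as a horizontal line and the SD as an error bar. Pglyrp1 is at 0 in KO and between 123 and 210 TPM in WT, Pglyrp2 lies between 29.9 and 54.4 TPM in both groups, and the other members are at 0.

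Within WT cells Pglyrp1 was the more abundant of the 2 members with RNA. The ratio of Pglyrp1 to Pglyrp2, which does not depend on the scaling between libraries, was 2.71, 3.85, 4.18 and 4.43 in WT 6 to 9 (mean 3.79 ± 0.76, SD, n = 4), so it was above 1 in 4 of 4 libraries. The spread of Pglyrp1 between WT libraries, a coefficient of variation of 24.5%, exceeded that of 68.9% of the 985 genes within a factor of 2 of its level, whose median was 18.2%. For Pglyrp2 the coefficient was 18.3%, close to the median of 19.7% over the 2819 genes near its level.

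Pglyrp1 ranked high among the genes of WT cells. By TPM it took rank 840 in WT 6, 603 in WT 7, 621 in WT 8 and 704 in WT 9, among 11935, 12135, 12259 and 12319 genes above 0. It thus stood above 92.9%, 95.01%, 94.9% and 94.3% of the detected genes of these libraries. Ranked on the mean of the 4 libraries, Pglyrp1 came 677th of 14742 genes above 0, whose median was 6.75 TPM. Pglyrp2 ranked 2265 to 2839 in WT libraries and 2769 to 3734 in KO libraries. Its mean stood above 83.4% of detected genes in WT and 79.8% in KO.

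**Figure D2:**
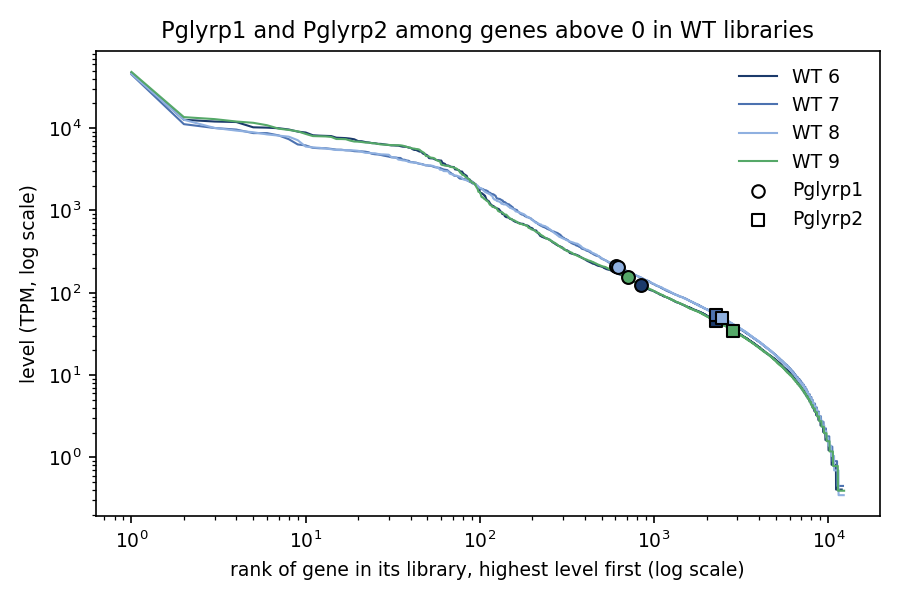
Level in TPM (vertical, log scale) against the rank of each gene above 0 in its library (horizontal, log scale), 1 line for each WT library, with Pglyrp1 as circles and Pglyrp2 as squares. Pglyrp1 falls at ranks 603 to 840 and Pglyrp2 at ranks 2265 to 2839.

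Set beside 30 genes for secreted products of T cells, Pglyrp1 lay in the upper part of the order. On the WT mean, 10 of the 30 were above it: Ccl5, Lgals1, Gzmb, Mif, Ltb, Gzma, Lgals3, Ccl4, Prf1 and Gzmc. The count was 10, 10, 12 and 9 in WT 6 to 9. Its nearest neighbours in the order were the granzymes Gzmc (209 ± 124 TPM) and Gzmk (170 ± 164 TPM), and Pglyrp1 (173 ± 42.5 TPM) did not differ from either beyond their spread (SD, n = 4). The effector cytokines Ifng and Tnf, at 49.1 ± 42.4 and 32.5 ± 21.9 TPM, had lower means than Pglyrp1 and their highest library stood below its lowest. Pglyrp2 came between the chemokine Xcl1 (47.9 ± 21.8 TPM) and Tnf, again within the spread of both. Among 16 genes for coinhibitory receptors and terminal differentiation, 3 had a higher WT mean than Pglyrp1. They were Klrc1 (497 ± 386 TPM), which encodes the inhibitory receptor NKG2A, Pdcd1 (224 ± 137 TPM), which encodes PD-1, and Tigit (200.2 ± 115 TPM). For each of the 3, the gap in means from Pglyrp1 was within the gene's own spread between libraries (SD, n = 4). Within libraries, however, Klrc1 was above Pglyrp1 in all 4, at 163, 739, 913 and 173 TPM in WT 6 to 9. The count above Pglyrp1 was 1, 3, 3 and 3 in WT 6 to 9. In WT 6, Pdcd1 and Tigit were at 53.6 and 73.2 TPM, below Pglyrp1. In WT 9, Tigit was at 133 TPM, also below Pglyrp1, whereas Lag3 stood at 153.8 TPM, just above the 153.4 TPM of Pglyrp1.

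**Figure D3:**
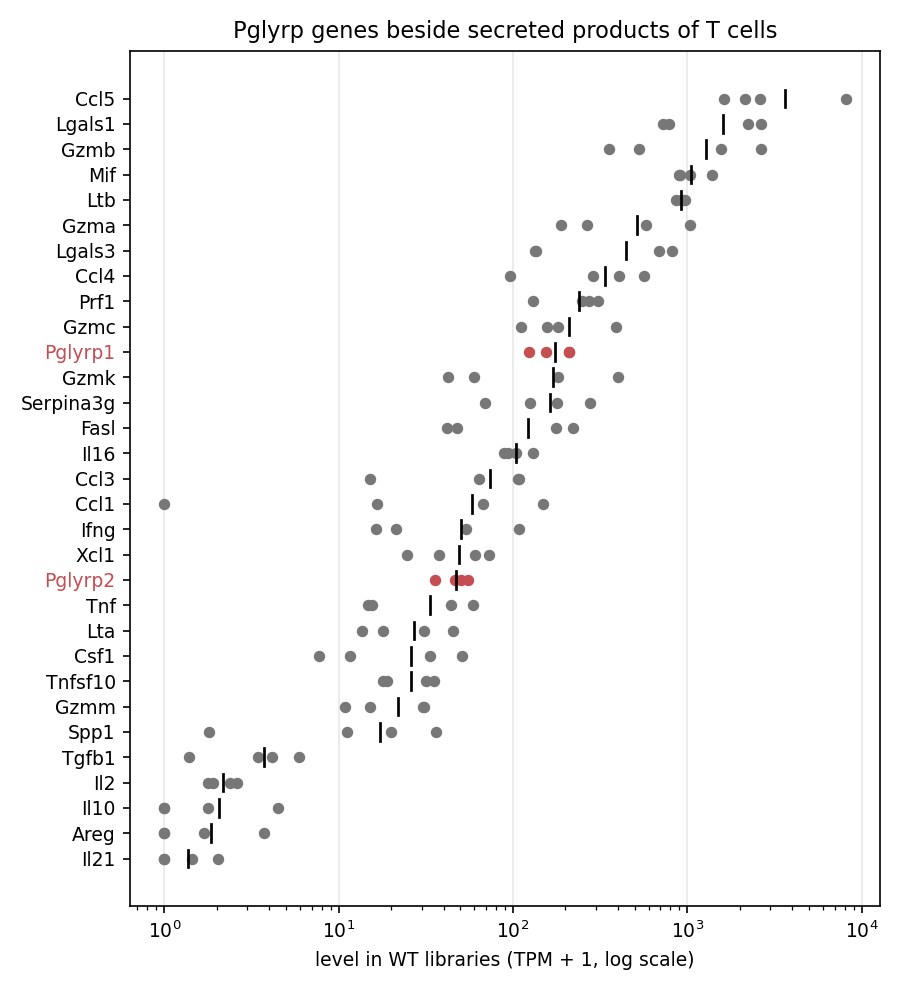
Level in the 4 WT libraries (grey points, TPM + 1, log scale) of 29 secreted T cell products above 0, in order of their mean (black bars), with Pglyrp1 and Pglyrp2 in red. Pglyrp1 lies between Gzmc and Gzmk, and its 4 points span less than those of either.

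The WT libraries differed in several gene lists, whose values stand beside those of Pglyrp1. Pglyrp1 was highest in WT 7 and WT 8, at 210 and 208 TPM, and lower in WT 6 and WT 9, at 123 and 153 TPM. The summed level of the 16 coinhibitory and terminal genes was 2083 and 2168 TPM in WT 7 and 8. It was 506 and 900.0 TPM in WT 6 and 9. CD8 T cell identity genes were also higher in WT 7 and 8, with sums of 8360 and 8561 TPM. In WT 6 and 9 their sums were 6338 and 6325 TPM. The summed level of 14 naive and memory genes went the other way, with 862 and 987 TPM in WT 7 and 8, and 2761 and 2567 TPM in WT 6 and 9. Markers of other cells also differed between these libraries. B cell genes had a sum of 8.10 and 10.07 TPM in WT 7 and 8, and 48.4 and 53.5 TPM in WT 6 and 9. Natural killer genes summed to 805 and 1199 TPM in WT 7 and 8, against 396 and 371 TPM in WT 6 and 9. That list holds the T cell product Gzma, at 266, 577, 1031 and 187 TPM in WT 6 to 9. The part of cell state or of other cells in the level of Pglyrp1 was not tested. Only 4 WT libraries carry Pglyrp1, too few for a correlation, and none was computed.

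The genes whose WT levels were most like those of Pglyrp1 were found by the root mean square difference of log2(TPM + 1) over the 4 WT libraries. The nearest was Prdx5, a peroxiredoxin (0.11), followed by Bcap31, a protein of the endoplasmic reticulum membrane (0.11), Sla, an adaptor that dampens T cell receptor signals (0.13), Akna, an AT-hook protein (0.14), and Ube2v1, a ubiquitin-conjugating enzyme variant (0.14). In WT 6 to 9, Prdx5 stood at 114, 224, 230 and 146 TPM and Bcap31 at 132, 188, 208 and 142 TPM. In KO libraries these 5 genes remained between 121 and 460 TPM, where Pglyrp1 was listed at 0. None of the 5 was called between KO and WT (limma adjusted p 0.541 to 0.821), and Akna alone had groups that did not overlap, with KO below WT, as had 2.4% of all genes tested.

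The pattern of Pglyrp1, 0 in every KO and above 0 in every WT library, was shared by few rows of the table. It held for 5 rows (9 to 16 with any 1 library left out), and Pglyrp1 was the only one with at least 5 TPM in every WT library. The other 4 were Gm4872, Olfr917, AA792892 and Lhx4, with WT means of 1.64, 1.43, 0.936 and 0.399 TPM. The mirror pattern, 0 in every WT and above 0 in every KO library, held for 22 rows, and 1 of them reached 5 TPM in every KO library. That row was the microRNA precursor gene Mir684-1, at 106, 41.1, 336 and 948 TPM in KO 1 to 4 (limma adjusted p = 0.0133). Among rows above 0 in 1 or 2 libraries, the lowest deposited value had a median of 248 for transcripts of up to 200 bases. For those over 4000 bases it was 1. A short precursor can thus pass 5 TPM on few reads, and the number of reads is unknown. Mir684-1 was picked by this pattern and passed the filter through KO libraries alone, so its p-value adds no independent result. Its call was lost without KO 3 or without any single WT library (limma adjusted p 0.0571 to 0.0917). Next by KO mean came Hp, the haptoglobin gene, at 25.4 ± 34.6 TPM, Lgals7 at 9.98 ± 12.7 TPM, Adap2 at 8.53 ± 8.71 TPM and Mmp25 at 4.51 ± 5.06 TPM (SD, n = 4). Their values were highest in KO 3 or KO 4.

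Because neutrophils store Pglyrp1 in their granules, genes that define them were read in the same libraries. Of 22 neutrophil genes listed, 18 were in the table. The defining markers Ly6g and Elane had no row under those names and were not read. Of the 18 genes, 9 were at 0 in every WT library and 3 in all 8 libraries. The cathelicidin gene Camp and the lactoferrin gene Ltf, which encode granule proteins, were at 0 in all 4 WT libraries, as was the myeloperoxidase gene Mpo. Ngp, another granule protein gene, was at 0.406 TPM in WT 6 and at 0 in WT 7, 8 and 9. S100a8 and S100a9, abundant in neutrophils and monocytes, were at 32.8 and 22.04 TPM in WT 7 and at 0 in the other WT libraries. The summed level of the 18 genes was 17.9, 87.7, 18.4 and 18.1 TPM in WT 6 to 9, of which Cxcr2 made up 16.7, 18.4, 13.5 and 18.1 TPM. Pglyrp1 was above this sum in every WT library, and the part of neutrophils in its level was not tested. T cell genes stood at high levels in the same libraries: Cd3e, a chain of the T cell receptor complex, was at 675 to 1011 TPM and Cd8a at 388 to 506 TPM in WT cells, with 772 to 856 and 376 to 454 TPM in KO cells. The macrophage lysozyme gene Lyz2 was at 0, 18.9, 5.56 and 31.1 TPM in WT 6 to 9. The 20 macrophage and dendritic cell genes summed to 319, 286, 318 and 1052 TPM in WT 6 to 9, above Pglyrp1 in each, and the part of such cells in the level of Pglyrp1 was not tested.

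**Figure D4:**
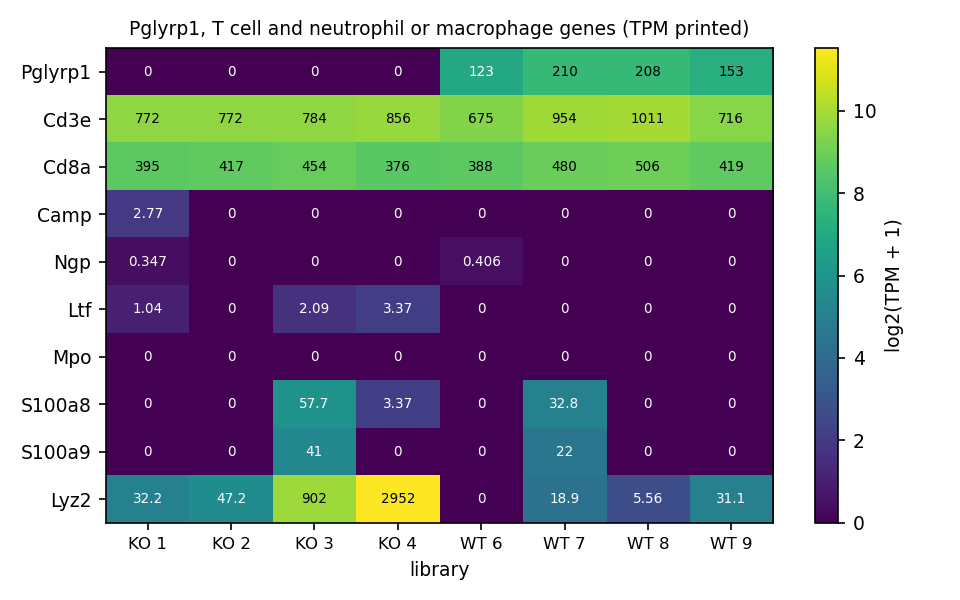
Level of Pglyrp1, of the T cell genes Cd3e and Cd8a, and of neutrophil and macrophage genes (rows) in the 8 libraries (columns), coloured by log2(TPM + 1) with the TPM printed in each cell. Camp, Ltf and Mpo are at 0 in every WT library, where Pglyrp1 is at 123 to 210 TPM. S100a8 and S100a9 are at 32.8 and 22.04 TPM in WT 7, the library with the highest Pglyrp1, and at 0 in the other WT libraries.

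The receptors and partners described for the Pglyrp1 protein were for the most part above 0 in these sorts, without a test of which cells held the RNA, and none of the 6 that entered the test was called in either direction. Of the 6, 3 had a positive and 3 a negative difference, with a median of 0.13, beside 0.04 over all 10732 genes. Trem1, the receptor for which Pglyrp1 is a ligand, had a listed value of 0 in WT 6 to 9 and in KO 1 and 2, and was at 3.59 and 14.3 TPM in KO 3 and 4. Its adaptor gene Tyrobp was at 83.2, 84.9, 1279.7 and 1291 TPM in KO 1 to 4 and at 40.6, 32.4, 23.3 and 28.3 TPM in WT 6 to 9. The Tyrobp groups did not overlap, as for 2.62% of all genes with KO above WT (log2 difference 3.39, SE 0.92, limma adjusted p = 0.395). Without KO 3 and 4 the log2 difference was 1.43, and without either alone it was 2.74. Tyrobp is also on the macrophage list, whose sum is high in KO 3 and 4, and the part of these cells was not tested. Tnfrsf1a, which encodes TNFR1, was at 24.4 to 46.8 TPM in WT and 33.3 to 77.9 TPM in KO cells, with overlapping groups (limma adjusted p = 0.651).

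Genes for the other partners overlapped between the groups. S100a4, a calcium-binding protein, was at 321, 1644, 1265 and 313 TPM in WT 6 to 9 and at 795 to 1466 TPM in KO cells (limma adjusted p = 0.727). S100a4 was high in WT 7 and 8 and low in WT 6 and 9. Without WT 6 and 9 its log2 difference of 0.67 changed sign, to -0.42. Hspa1a, which encodes Hsp70, reached 275 TPM in WT 7, with 27.9 to 115 TPM elsewhere, and its near-identical copy Hspa1b was at 1.22 to 18.9 TPM. Reads of these copies may be split between them by the counting, so their levels are uncertain. Hspbp1, a cochaperone of Hsp70, stood at 50.3 ± 6.401 TPM in KO and 59.3 ± 4.25 TPM in WT cells (log2 difference -0.24, SE 0.14, limma adjusted p = 0.633). Cd36, a scavenger receptor gene on the same list, was above 0 in 3 libraries only, at up to 5.09 TPM.

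**Figure D5:**
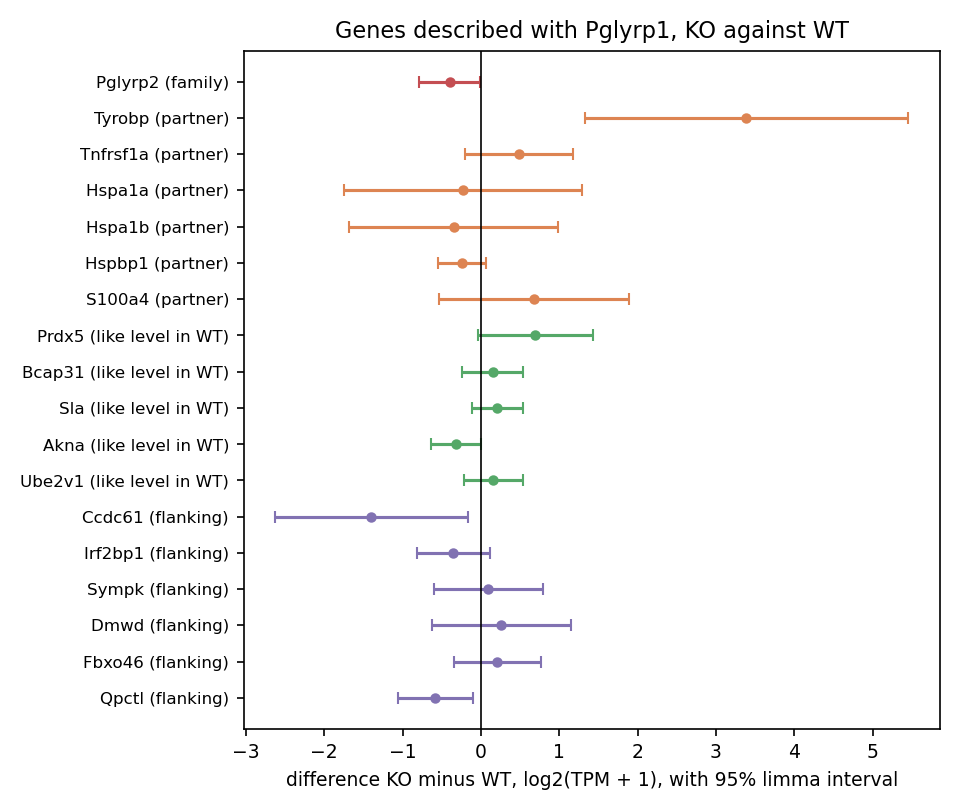
Difference of KO minus WT on the log2(TPM + 1) scale (points) with its 95% limma interval (bars) for Pglyrp2, 6 partners, the 5 genes of like WT level and 6 flanking genes. None passed the adjusted threshold, and the interval is widest for Tyrobp, from 1.33 to 5.45.

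Other sensors of bacterial cell wall were read for the pathway around the family. Of 16 genes in the table, 13 entered the test, 9 with a positive and 4 with a negative difference, and none was called (median 0.42). Tirap, an adaptor of Toll-like receptors, was at 6.86 ± 2.85 TPM in KO and 2.87 ± 1.01 TPM in WT cells, while Lyz2 was at 983 ± 1374 and 13.9 ± 13.9 TPM (SD, n = 4; limma adjusted p = 0.440 and 0.442). The groups of both did not overlap, with KO above, as for 2.62% of all genes tested. For Lyz2 the KO values were 32.2, 47.2, 902 and 2952 TPM, highest in KO 3 and 4, where macrophage and dendritic cell genes summed to 8772 and 12037 TPM. Without these 2 libraries the log2 difference of Lyz2 fell from 4.99 to 2.31, and the part of such cells was not tested. Of 13 other secreted antimicrobial genes in the table, 3 entered the test and none was called. Of these, Cxcl10, an interferon-induced chemokine, stood at 8.65 to 21.9 TPM in WT cells and at 26.7, 11.8, 147 and 98.1 TPM in KO 1 to 4, and Rnase4, a secreted ribonuclease, was at 0 to 1.39 TPM in WT and 0 to 15.6 TPM in KO cells.

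Around the gene, RefSeq holds 27 other genes within 250 kb on either side, of which 20 were in the table, 4 at 0 in all libraries, and 6 entered the test. None of the 6 was called, with 3 positive and 3 negative differences. Ccdc61, which encodes a coiled-coil protein of centrioles, is the nearest, on the opposite strand, with its end 444 bases from that of Pglyrp1. It was at 1.04, 3.63, 3.29 and 4.21 TPM in KO 1 to 4 and at 9.35, 13.04, 19.8 and 2.36 TPM in WT 6 to 9. WT 9 lay within the KO range, and the other 3 WT libraries lay above it (log2 difference -1.40, SE 0.55, limma adjusted p = 0.508, unadjusted p = 0.0297). Qpctl, an enzyme of the Golgi that forms pyroglutamate, stood at 5.31 ± 0.935 TPM in KO and 8.44 ± 1.31 TPM in WT cells, with groups that did not overlap (log2 difference -0.58, SE 0.21, limma adjusted p = 0.497). Irf2bp1 (4.74 ± 0.667 and 6.32 ± 0.807 TPM) also had groups apart with KO below, as had 2.4% of all genes tested, whereas Sympk, Dmwd and Fbxo46 overlapped. The KO allele carries 129 in its strain name and the WT line does not, so the deletion and its linked segment cannot be told apart here.

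Bases before the annotated starts of Pglyrp1 and Pglyrp2, the 2 members with RNA and with an entry in the RefSeq promoter table (GRCm38.p6), are shown because their levels differ in WT cells. Each window runs from 250 to 11 bases before the start. Capitals mark every match, on either strand, to a set of motifs. The NFAT core was searched as GGAAA, the AP-1 site as TGANTCA, the RUNX site as TGTGGT, and the GATA factor site as AGATAA. The KLF site was searched as CACCC, the TCF site as CTTTGA and the core promoter box as TATAAA. Only a part of the cyclic AMP response element was searched, as TGACGT. No 2 matches overlap.
Pglyrp1, chr7:18884440-18884679, plus strand: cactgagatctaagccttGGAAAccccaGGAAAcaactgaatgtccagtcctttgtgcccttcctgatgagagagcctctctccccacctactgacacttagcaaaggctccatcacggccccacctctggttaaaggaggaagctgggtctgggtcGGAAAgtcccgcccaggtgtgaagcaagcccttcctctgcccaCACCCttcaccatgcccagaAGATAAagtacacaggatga
Pglyrp2, chr17:32420986-32421225, minus strand: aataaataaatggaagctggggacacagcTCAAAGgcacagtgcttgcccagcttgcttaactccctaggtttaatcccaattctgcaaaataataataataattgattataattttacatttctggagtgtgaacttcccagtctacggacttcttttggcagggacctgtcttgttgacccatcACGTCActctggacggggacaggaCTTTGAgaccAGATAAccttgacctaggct

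The Pglyrp1 window held 3 GGAAA matches, at -232, -222 and -93, and 1 CACCC match, at -50. GGAAA occurred in 54.1% and CACCC in 50.6% of 32851 such windows, and the Pglyrp2 window held neither. The Pglyrp2 window held 2 CTTTGA matches, at -221 and -40, and 1 TGACGT match, at -64, motifs found in 13.5% and 6.09% of windows and absent from that of Pglyrp1. Both windows held AGATAA at -30, as a match to a motif found in 9.74% of windows at any place. Neither held the core promoter box, the AP-1 site or the RUNX site as spelled above, which occurred in 12.1%, 6.58% and 13.6% of windows. Other annotated Pglyrp2 transcripts start farther upstream, and for them this window is intronic. In GENCODE M21 the Pglyrp1 gene starts at 18871331, so the Pglyrp1 window also lies within the annotated gene. The matches describe these letters only.

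The remaining lists describe the cells in which the family was read, and none of their members was called. Differences were positive for 20 of 27 secreted T cell products (median 0.70), where Prf1 was at 771 ± 292 TPM in KO and 239 ± 76.7 in WT cells, Ccl3 stood at 458 ± 250 and 72.6 ± 44.2, and for 16 of 16 coinhibitory and terminal genes (1.13), where Nr4a2 was at 34.4 ± 9.04 and 6.72 ± 2.47. They were positive for 2 of 14 naive and memory genes (-0.41), where Lef1 was at 61.95 ± 37.5 TPM in KO and 122 ± 70.4 in WT cells. Lef1 was at 183 TPM in both WT 6 and WT 9, and its log2 difference of -0.97 was -0.19 without them and -0.26 without KO 3 and 4. Differences were positive for 4 of 11 CD8 T cell identity genes (-0.09). Cd8b1 was at 1183 ± 134 TPM in KO and 1538 ± 180 TPM in WT cells. In lists for other cells, differences were positive for 17 of 17 macrophage and dendritic (2.32) and 14 of 14 natural killer genes (1.23). The lists are not independent. The natural killer list also holds the T cell products Gzma and Xcl1, and shares Fcer1g and Tyrobp with the macrophage list. The epithelial list shares Areg with the secreted T cell products. Differences were further positive for 7 of 9 CD4 and regulatory T cell (0.60) and 5 of 5 epithelial genes (1.48). They were positive for 2 of 3 neutrophil (0.73) and 0 of 2 B cell genes (-0.76). Over all genes tested, 55.2% were positive. The natural killer gene Ncr1 stood at 0.907 to 7.996 TPM in KO and 0 to 1.18 TPM in WT cells, and Cd4 at 4.50 to 66.7 and 0.393 to 2.25 TPM.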

How the data were processed

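The authors deposited a score per gene and library, which they called a TPM-normalized count. The values are whole numbers, and library totals run from 2223162 to 3342847. Raw counts would step by 1 in every gene. Among rows above 0 in 1 or 2 libraries, the median lowest value was 248 for transcripts of up to 200 bases and 1 for those over 4000 bases (GENCODE M21 median length), and of 132 values above 0 in short genes 0 equalled 1, so levels were read as corrected for length. Per the submitters' processing notes, RSEM 1.3.3 and mm10 were used. How reads were aligned, which annotation served and how values were scaled and rounded is not given in the sources used here. Without counts the depth is unknown; 11935 to 13300 genes were above 0 per library. Values were brought to a total of 1000000 per library (TPM) and taken as log2(TPM + 1), which understates changes of low genes. Tests covered the 10732 genes that reached 1 TPM in 4 or more libraries, with limma 3.58.1 (R 4.3.3), fitting genotype alone with a mean trend, and Benjamini-Hochberg adjusted p-values at 0.05. Planned for TPM, this test was kept. Exact permutation tests of single genes used scipy 1.17.1. The fit was tested only on simulated data with independent noise and large shifts. That check does not cover small differences such as that of Pglyrp2, or differences in cell mixture between libraries. Of 203 entries in 13 gene lists, 188 matched the table, 4 by a synonym; 1 partner gene is not reported here. Alternatives changed the pseudocount, filter, scaling, limma settings and libraries. Named genes are the members, partners, the 5 nearest genes, tested flanking genes, genes of like on/off pattern, defining markers, and per list up to 4 called genes or else the 2 of smallest p. Genes listed as above Pglyrp1 in WT cells, and Ifng, Tnf and Xcl1, were chosen after their values were seen. Members, lists and motifs were chosen with earlier results of these data known.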

Additional observations from a re-analysis of the deposited data

Results flagged for a closer look

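In groups of 4 libraries, a value was marked where the gap from the highest or lowest library to its nearest neighbour was most of the group's range (Dixon's test at 95%). This marked 20 of 135 groups, where chance marks about 1 in 20, or 6.75; many marked groups are genes at 0 in 3 libraries, for which any value above 0 is marked. No member of the Pglyrp family was marked.

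Among neutrophil genes, S100a8 was at 32.8 TPM in WT 7 (0 in the other WT libraries) and at 57.7 TPM in KO 3 (0 to 3.37 in the other KO libraries). S100a9 was at 22.04 TPM in WT 7 and at 41.0 TPM in KO 3, and at 0 elsewhere. Camp was at 2.77 TPM in KO 1, and Ngp at 0.347 TPM in KO 1 and 0.406 TPM in WT 6. The summed level of neutrophil genes was 87.7 TPM in WT 7 (17.9 to 18.4 in the other WT libraries) and that of secreted antimicrobial genes 71.97 TPM (13.4 to 23.3). The summed level of macrophage and dendritic cell genes was 1052 TPM in WT 9 (286 to 319 in the other WT libraries).

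Among genes near or like Pglyrp1, Akna was at 121 TPM in KO 2 (138 to 141 in the other KO libraries), Dmwd at 3.15 TPM in WT 7 (0.695 to 0.813) and AA792892 at 2.25 TPM in WT 7 (0.393 to 0.695). Cd36 was at 5.09 TPM in KO 3 (0 to 0.842) and 2.36 TPM in WT 9 (0). Lgals7 was at 29.0 TPM in KO 4 (2.77 to 4.79). Among markers, Cd3e was at 856 TPM in KO 4 (772 to 784), Cd79b at 16.3 TPM in KO 1 (5.89 to 6.28), the growth factor gene Areg at 31.5 TPM in KO 1 (3.89 to 5.44) and Foxp3 at 5.51 TPM in WT 9 (2.03 to 2.43).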

How the results depend on the processing

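No paired analysis was possible because KO replicates carry the numbers 1 to 4 and WT replicates 6 to 9, with none in common. Leaving out KO 3 and 4, or WT 6 and 9, was chosen after the data were seen. In each of 18 alternatives Pglyrp1, the gene targeted in KO, was called lower, which checks the genotype only. Its fitted log2 difference of -7.41 depends on the pseudocount (-10.73 at 0.1, -5.12 at 5) and was -7.56 to -7.31 with 1 library left out. Pglyrp2 stayed lower in KO without a call in all 18 (difference -0.59 to -0.26). The rank of Pglyrp1 was 598 to 701 over its alternatives, beside 677. The number of genes called was 2 to 5 with 1 library left out, with 5 without KO replicate 2, and 2 to 4 in the other alternatives. The number of rows at 0 in every KO and above 0 in every WT library was 9 to 16 with 1 library left out and 1 at a minimum of 5 TPM, which follows from fewer samples or a stricter rule. Mir684-1 lost its call in 7 alternatives.

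None of the genes that changed sign was called. Over the fits with 1 library left out, the difference ranged from -0.67 to 0.42 for Hspa1a, -0.86 to 0.19 for Hspa1b, -1.19 to 0.049 for Cd79a, -0.15 to 0.042 for Cd3e and -0.13 to 0.31 for Sympk. Without WT 6 and 9 they were S100a4 (-0.42), Bcap31 (-0.11), Ube2v1 (-0.12), Cd79b (0.043), Cd79a (1.09), Sympk (-0.21) and Dmwd (-0.019), and without KO 3 and 4 they were Sympk (-0.28) and Dmwd (-0.0012). The cause was not tested.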
